A study of Mus musculus with 45 samples.

Results

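M1 macrophages of Faminp.254V mice were compared with M1 macrophages of Faminp.254I mice, with 5 libraries of each genotype, so that 10 of the 45 libraries of the series entered the comparison. All mice were on the C57BL/6N strain and 6 to 10 weeks old. Their bone marrow was cultured for 6 days into macrophages, and both groups received the same M1 stimulus for 24 h, with IFN-γ at 50 ng/mL and LPS at 20 ng/mL. The groups therefore differ in the Famin allele and share everything else that the labels give. Faminp.284R mice carry an allele that models a monogenic disease variant. Their 5 M1 libraries are given beside the 10, as are the unstimulated (M0) and IL-4-treated (M2) libraries of the first 2 genotypes. The labels number the libraries of each genotype from 1 to 5, and the sources used here do not state whether the number marks a day or a litter. Nothing states that the libraries of a group came from separate cultures, so p-values measure the spread between libraries. The main fit estimated that spread over all 45 libraries of the series, taken as independent.

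FAMIN, encoded by Lacc1, is an enzyme of macrophages that acts on purine nucleosides and links purine turnover to the control of cytoplasmic pH, glycolysis and mitochondrial respiration. Residue 254 varies between people, and the valine form is the one linked to higher risk of inflammatory disease. M1 activation by IFN-γ and LPS switches on inducible nitric oxide synthase, chemokines, guanylate-binding proteins and interferon-stimulated genes, whereas IL-4 switches on a separate set that includes arginase 1 and the resistin-like protein RELMα. Slc9a9, which encodes the endosomal Na+/H+ exchanger NHE9, and Mid1, which encodes a microtubule-bound ubiquitin ligase, were the 2 genes given with the genotype contrast.

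The variants lie in exon 5 of the 8 exons of Lacc1, on the minus strand of chromosome 14, and the coding sequence encodes 430 residues. The windows below are shown because they hold the codons that define the genotypes. They were read from the mm10 reference with its GENCODE annotation and written 5′ to 3′ along the transcript, with the codon in capitals.
Residue 254, chr14:77033319-77033345: cacgccagtgaaGTGtgggttatgggg
Residue 284, chr14:77033229-77033255: cttggcgccgacTGTatacccatcgtc
The reference codon at residue 254 is GTG, which encodes valine, so that 254I is the form that departs from the mouse reference (V254I). The reference codon at residue 284 is TGT, which encodes cysteine, and 284R is the change C284R. Both windows are reference sequence, and the bases that the mice carry were not read from these data.

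The 10 libraries held between 19615588 and 31755206 counts (medians 27898607 in 254I and 29177230 in 254V), so that 1 CPM, the depth-normalised and TMM-scaled unit of level used throughout, stood for between 19.5 and 30.9 reads. The M1 label was borne out in every library. The summed level of 8 M1 markers, led by Gbp2, ranged from 12120 to 14240 CPM in 254I and from 12830 to 14320 CPM in 254V, against at most 282.7 CPM in M0 and 384.5 CPM in M2 libraries. Macrophage markers summed to between 11710 and 14590 CPM, and 3 of 4 erythroid markers were at 0 in all 10 libraries. Neutrophil markers, led by S100a9, summed to 47.7 to 152.6 CPM in 254I and 61.6 to 98.9 CPM in 254V. Dendritic cell markers, led by Clec9a, summed to 255.1 to 410.8 CPM in 254I and 298.2 to 404.2 CPM in 254V. In M0 libraries they summed to at most 2.311 CPM. The libraries numbered 2 had the highest neutrophil and dendritic cell sums of each genotype. Both libraries numbered 2 stood apart from the other 8 on the first principal component (51.3% of the variance), and 254I replicate 5 carried genes of the IL-4 response. For 254V against 254I, results that rest on 254I replicate 5 are given with and without it. The count over all genes is also given without the libraries numbered 2.

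No gene passed the test. Among 12905 genes tested, edgeR's quasi-likelihood test called 0 at a Benjamini-Hochberg adjusted p under 0.05, which is 0% of them, and the smallest adjusted p was 0.308 (Retnla). Before adjustment, 120 genes had p under 0.05, 44 higher in 254V (0.341%) and 76 lower (0.589%). The groups of 5 did not overlap for 14 genes that were higher in 254V (0.108%) and 17 that were lower (0.132%). A two-sided exact permutation test of each gene gave its smallest possible p, 0.0079, for those 31 genes, and no adjusted p under 1.

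The width of the intervals shows how large a difference the main fit could have hidden, given the spread it shares over all 45 libraries. The median half-width of the 95% interval was 0.23 on the log2 scale, and the whole interval lay within 1.5-fold in either direction for 9752 genes (75.6%) and within 2-fold for 11444 (88.7%). For most measured genes a 1.5-fold difference in either direction therefore lay outside the interval.

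Slc9a9 (ENSMUSG00000031129, chr9:94669909-95230445, plus strand) had the highest fold among the 3 named genes, and it was high in only some of the 254V libraries. In 254I replicates 1 to 5 its level was 5.28, 7.40, 6.37, 4.89 and 5.65 CPM. In 254V replicates 1 to 5 it was 53.5, 69.8, 35.1, 5.25 and 6.00 CPM. In the 284R M1 libraries it was between 26.0 and 52.1 CPM, above every 254I library. Replicates 1, 2 and 3 of 254V stood several-fold above every 254I library, while replicates 4 and 5 lay within the 254I range. The means were 5.92 ± 0.99 CPM in 254I and 34.0 ± 28.6 CPM in 254V (SD, n = 5), which is 2.52 on the log2 scale (SE 0.73). It missed the threshold over all genes (edgeR p = 0.0013, adjusted p = 1), and the two-sided exact permutation p was 0.103. With the replicate number as a block the log2 fold change was 2.25 (SE 0.65, adjusted p = 1). Under limma-voom with the replicate number as a block, Slc9a9 was the 1 gene called, at 2.58 on the log2 scale (SE 0.32, adjusted p = 0.0299), although the within-pair differences on the log2(CPM + 1) scale ran from 0.08 in pair 5 to 3.12 in pair 1.

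The same 2 numbers of 254V were low outside M1 as well. In M0 the 254V libraries numbered 4 and 5 had 12.02 and 10.89 CPM of Slc9a9, against 231.1, 308.2 and 126.5 CPM in numbers 1, 2 and 3 and 11.2 to 21.7 CPM in 254I. In M2 they had 2.41 and 2.43 CPM, against 42.0, 50.3 and 29.6 CPM. The log2 fold change was 3.13 in M0 and 3.11 in M2, and the interactions, -0.62 (SE 0.97) against M0 and -0.59 (SE 1.05) against M2, did not pass the test (adjusted p = 1). The levels in M1 and in the other polarizations come from libraries with the same genotype and number, so they are not independent.

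Mid1 (ENSMUSG00000035299, chrX:169685199-170005736, plus strand) was less abundant and its groups overlapped. In 254I replicates 1 to 5 it was at 1.99, 2.72, 3.19, 2.67 and 1.54 CPM. In 254V replicates 1 to 5 it was at 3.78, 6.18, 2.70, 2.83 and 5.10 CPM. In the 284R M1 libraries it was between 3.53 and 9.12 CPM. Replicates 3 and 4 of 254V fell inside the 254I range and the others lay above it. The log2 fold change was 0.75 (SE 0.40, edgeR p = 0.064, adjusted p = 1, two-sided exact permutation p = 0.0476). With the block it was 0.72 (SE 0.28, adjusted p = 1). The genotype difference was 2.16 in M2 (SE 0.42, adjusted p = 0.093), and the interaction between M1 and M2 was -1.40 (SE 0.57, adjusted p = 1). Mid1 has a near-identical partial copy, Mid1-ps1, on the Y chromosome, and G530011O06Rik overlaps it on the opposite strand, so reads may be shared among them. Y-linked marker genes summed to 0 CPM in the 254I M1 libraries and at most 0.035 CPM in those of 254V. How the reads were assigned was not tested.

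Lacc1 itself (ENSMUSG00000044350, chr14:77024200-77036904, minus strand) was abundant and nearly level between the genotypes. In 254I replicates 1 to 5 it was at 501.4, 490.2, 509.0, 485.8 and 523.2 CPM. In 254V replicates 1 to 5 it was at 541.9, 545.5, 536.7, 597.4 and 532.6 CPM. Every 254V library lay above every 254I library, by 1.1-fold between the means. The log2 fold change was 0.13 (SE 0.23, edgeR p = 0.558, adjusted p = 1), and the two-sided exact permutation p was 0.0079, the smallest that 5 against 5 allows. With the block the log2 fold change was 0.13 (SE 0.04, adjusted p = 1). The SE of the fit across all groups includes the wider spread of 284R libraries, whose Lacc1 ranged from 218.2 to 584 CPM in M1. In M0 and M2 the log2 fold changes of 254V over 254I were -0.12 and 0.03, and neither passed the test.

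**Figure D1:**
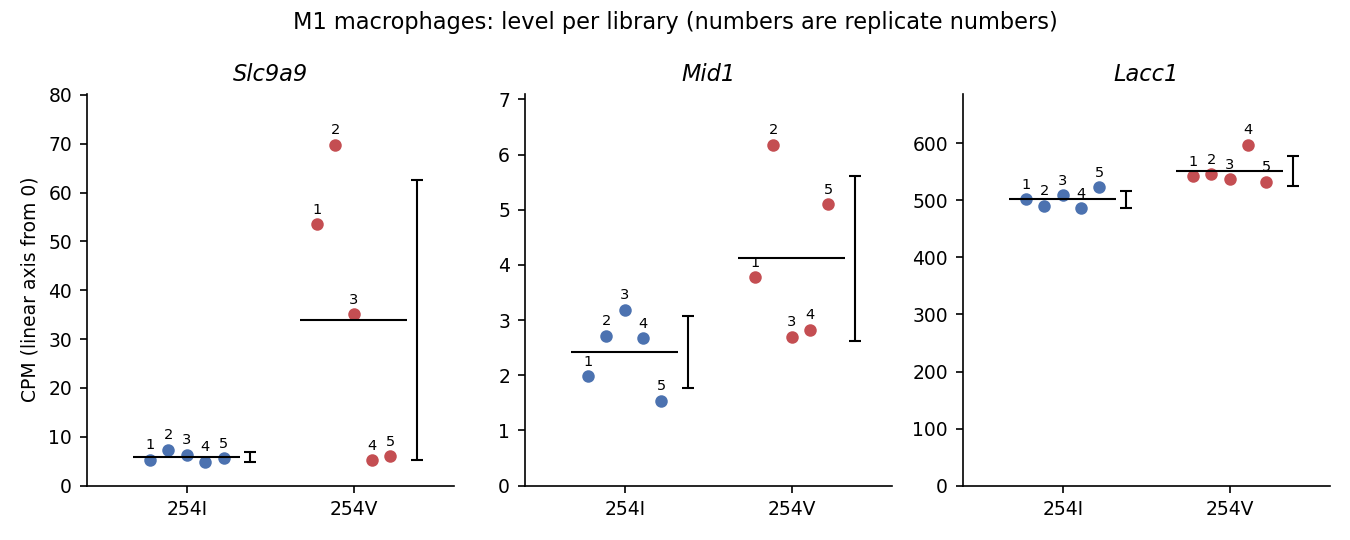
Level of Slc9a9, Mid1 and Lacc1 in CPM (linear axes from 0) in the 5 M1 libraries of 254I and of 254V, each point labelled with its replicate number, with the mean as a line and the SD as a bar. Slc9a9 was at 35.1 to 69.8 CPM in 3 of the 5 254V libraries and at 5.25 and 6.00 CPM in the other 2, Mid1 overlapped between the groups, and Lacc1 was at 485.8 to 523.2 CPM in 254I and 532.6 to 597.4 CPM in 254V.

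Genes near these loci were examined for differences that sit beside them. Within 2 Mb of Lacc1, 17 other genes were tested and 0 had an unadjusted p under 0.05 in either direction, with a median log2 fold change of -0.01 and 17 of 17 intervals within 1.5-fold. The nearest were Tsc22d1 and Nufip1 on the one side, at log2 fold changes of 0.07 (SE 0.14) and 0.02 (SE 0.08), and Dnajc15 and Epsti1 on the other, at 0.06 (SE 0.08) and 0.04 (SE 0.15). Ccdc122, which overlaps Lacc1 on the other strand, was at 6.01 ± 1.13 CPM in 254I and 5.86 ± 0.60 CPM in 254V (SD, n = 5). Within 2 Mb of Mid1, 0 of 6 genes had an unadjusted p under 0.05, among them Hccs, which encodes a haem lyase of mitochondria, at -0.07 (SE 0.09). Within 2 Mb of Slc9a9, 1 of 16 had an unadjusted p under 0.05, Spsb4, which was named after its value was seen and was at 0.42 ± 0.40 CPM in 254I and 0.17 ± 0.10 CPM in 254V (SD, n = 5, log2 fold change -1.11, adjusted p = 1). The nearest on the one side, 1190002N15Rik, was at -0.03 (SE 0.09). The nearest 2 on the other were Chst2, a sulfotransferase gene at 0.13 ± 0.08 CPM in 254I and 0.06 ± 0.04 CPM in 254V (SD, n = 5, log2 fold change -0.98, SE 0.80, adjusted p = 1), and U2surp at -0.03 (SE 0.05).

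The genes with the smallest p among those lower in 254V were Retnla (RELMα), Arg1 (arginase 1) and Tmem26, a membrane protein gene. Retnla was at 0, 0.03, 0.07 and 0.04 CPM in 254I replicates 1 to 4 and at 49.1 CPM in replicate 5, against 0.03 to 0.20 CPM in the 5 254V libraries. Arg1 was at 0.55 to 0.90 CPM in 254I replicates 1 to 4 and 40.8 CPM in replicate 5, against 0.47 to 0.73 CPM in 254V. Tmem26 was at 0.15 to 0.74 CPM in 254I replicates 1 to 4 and 14.7 CPM in replicate 5, against 0.21 to 0.67 CPM in 254V. A single 254I library therefore held all of the difference for these 3 genes, and the other 4 overlapped with 254V. The log2 fold changes were -6.56 for Retnla (SE 1.38, adjusted p = 0.308), -3.70 for Arg1 (SE 0.81) and -2.77 for Tmem26 (SE 0.75). Without 254I replicate 5 they were 1.34, -0.09 and -0.02 (adjusted p = 1 for each), and Retnla changed sign.

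**Figure D2:**
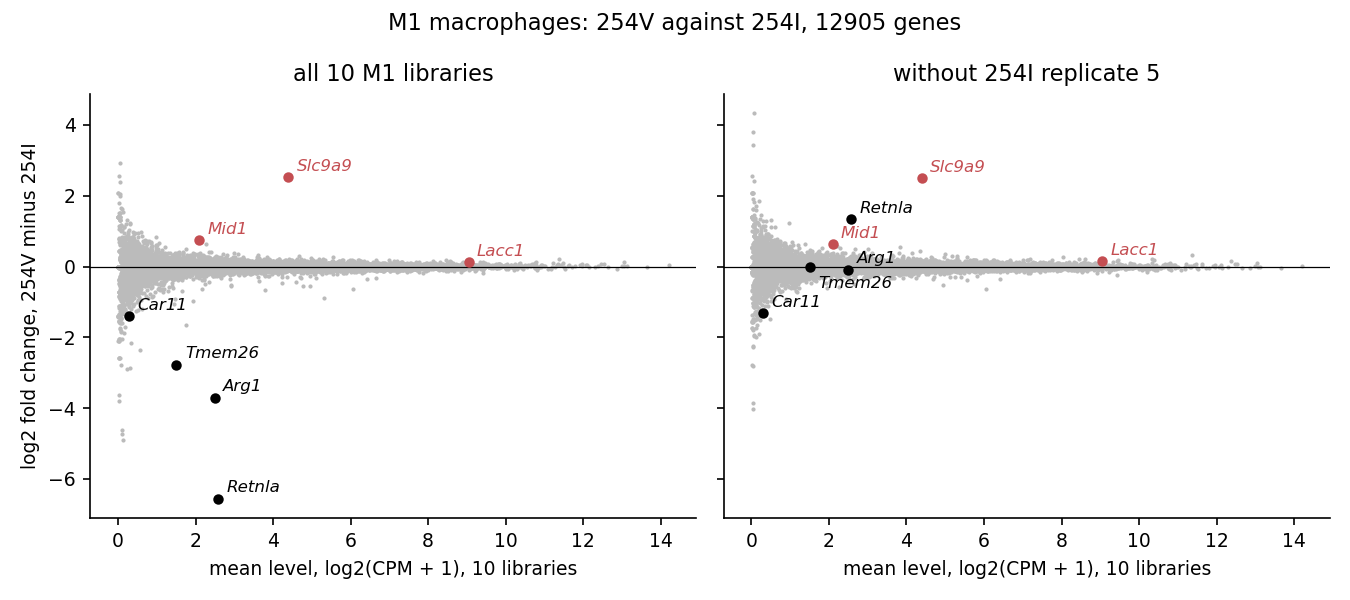
Log2 fold change of 254V over 254I against the mean level over the 10 M1 libraries, log2(CPM + 1), for the 12905 genes tested, with all 10 libraries (left) and without 254I replicate 5 (right). Retnla, Arg1 and Tmem26 moved from -6.56, -3.70 and -2.77 to 1.34, -0.09 and -0.02, while Slc9a9 stayed at 2.50.

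The excess in 254I replicate 5 extended across genes that IL-4 raises. A set of 59 genes was picked, after the values had been seen, as those over 32-fold higher in the mean of all M2 libraries than in the mean of the other M1 libraries, with over 20 CPM in M2. In 254I replicate 5 they were at a median of 4.46% of their level in the M2 library of the same genotype and number, with a range of 1.296% to 10.41%, and the medians of the other 9 M1 libraries were 0.96% to 1.27% of that same M2 library. 254I replicate 5 had the highest level of the 10 libraries for 52 of the 59. The pick required low means in the other M1 libraries but not in this one, which favours this library in such counts. Summed, the 59 genes were at 756.6 CPM there and at 195.1 to 290.4 CPM in the others. Chil3 and Mgl2, a chitinase-like protein and a lectin of IL-4-treated macrophages, were at 33.67 and 14.99 CPM there, against 6.47 to 19.3 and 0.49 to 2.37 CPM elsewhere. Of the 59 genes, 11 had an unadjusted p under 0.05 and were lower in 254V, where 76 of all 12905 were (0.589%). Without that library 0 of the 59 and 47 of all genes were, and the median log2 fold change of the 59 went from -0.51 to -0.02. The M1 markers of 254I replicate 5 were within the range of the other libraries. The source of the IL-4 genes in this library was not tested.

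**Figure D3:**
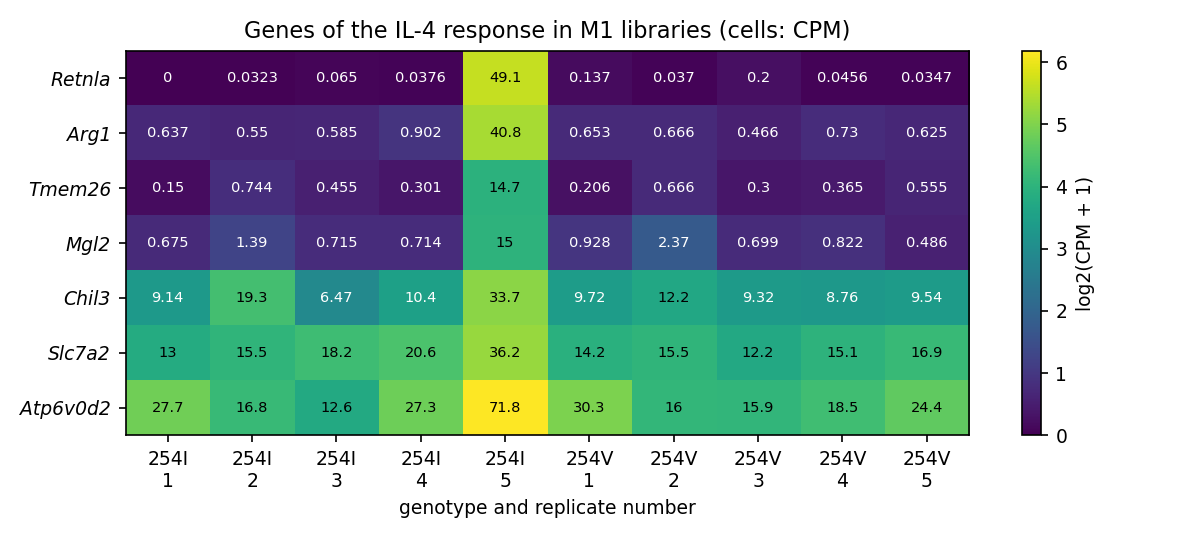
Level of 7 genes of the IL-4 response in the 10 M1 libraries, coloured by log2(CPM + 1) with the CPM value printed in each cell. 254I replicate 5 was the highest library for each gene, with 49.1 CPM of Retnla and 71.8 CPM of Atp6v0d2.

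The other genes with the smallest p were of low abundance. Higher in 254V after Slc9a9 came the pseudogene Stk19-ps1 (0.14 ± 0.04 CPM in 254I and 0.33 ± 0.09 CPM in 254V, SD, n = 5), the mitochondrial basic amino acid carrier gene Slc25a29, the zinc finger genes Zfp30 and Zfp647 and the antisense gene Mkln1os. Their log2 fold changes ranged from 0.69 to 1.24. Lower in 254V came the protocadherin gene Pcdhga10, the predicted gene Gm3608 and Car11, which encodes a carbonic anhydrase-related protein. Car11 was at 0.19 to 0.41 CPM in 254I and 0.07 to 0.15 CPM in 254V, without overlap, which was 6 to 10 reads and 2 to 4 reads a library. None of these exceeded 39 reads in any of the 10 libraries, and none passed the adjusted test.

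The enzyme genes of purine turnover that were tested were level between the genotypes. Pnp, Nt5e and Ada2 were listed for salvage but not tested. In the salvage list, 16 of 19 listed genes were tested, 0 had an unadjusted p under 0.05, and the median log2 fold change was 0.01 (range -0.14 to 0.15), with 14 of 16 intervals within 1.5-fold and 16 of 16 within 2-fold. Ada, which encodes adenosine deaminase, was at 22.5 to 33.6 CPM in 254I and 24.4 to 32.6 CPM in 254V. Pnp2, one of the purine nucleoside phosphorylase genes, was at 7.53 ± 1.16 and 8.36 ± 1.26 CPM (SD, n = 5), a log2 fold change of 0.15 (SE 0.23). Mtap, which encodes methylthioadenosine phosphorylase, was at 25.2 to 29.6 CPM and 27.0 to 29.1 CPM, a log2 fold change of 0.02 (SE 0.13). Hprt, which returns hypoxanthine and guanine to nucleotides, was at 272.9 ± 22.0 and 262.2 ± 9.86 CPM (SD, n = 5), and the adenosine kinase gene Adk at 37.2 ± 3.42 and 36.6 ± 0.64 CPM. Ahcy, which encodes adenosylhomocysteinase, had the lowest value of the list at -0.14 (SE 0.19).

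The purine nucleotide cycle turns AMP into IMP and back through AMP deaminase, adenylosuccinate synthase and adenylosuccinate lyase. Of its list, 9 of the 10 genes found in the annotation were tested, and Ampd1 was not. Of the 9, 0 had an unadjusted p under 0.05, and the median log2 fold change was 0.01. The lyase gene Adsl was at 35.6 ± 2.27 CPM in 254I and 35.3 ± 3.01 CPM in 254V, and the synthase genes Adss and Adssl1 had log2 fold changes of 0.05 (SE 0.08) and -0.03 (SE 0.13). The deaminase gene Ampd2 was at 0.02 (SE 0.06). Ampd3 was at 38.3 to 41.7 CPM in 254I and 36.6 to 40.0 CPM in 254V outside replicate 2, which had 24.4 and 27.0 CPM. Of the adenylate kinase genes, Ak4 had the highest value, 0.27 (SE 0.39), at 1.29 and 1.54 CPM. De novo synthesis had 12 of 12 genes tested, 0 with an unadjusted p under 0.05 and 12 of 12 intervals within 1.5-fold. Its members with the smallest p in each direction were Impdh1, which encodes an IMP dehydrogenase, at 0.10 (SE 0.15), and Pfas, which acts in the synthesis of the purine ring, at -0.09 (SE 0.08).

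Genes that move protons were also examined, since cytoplasmic pH is a readout of FAMIN activity. Of 8 Na+/H+ exchanger genes tested, 1 had an unadjusted p under 0.05, Slc9a9, and the median was 0.09 against 0.001 over all genes. Without 254I replicate 5 the median was 0.004. Slc9a7, an exchanger of the Golgi, was at 5.58 ± 0.84 CPM in 254I and 5.33 ± 0.95 CPM in 254V (SD, n = 5). Of 14 genes of bicarbonate and proton transport, 1 had an unadjusted p under 0.05, the low-abundance Car11, and the median was 0.02. The anion exchanger gene Slc4a3 was at 0.27 (SE 0.27). For the vacuolar proton pump, 20 of the 21 listed genes found in the annotation were tested, and 0 had an unadjusted p under 0.05. The median was -0.003 and 18 of 20 intervals lay within 1.5-fold. Atp6v0d2, the pump subunit gene with the lowest value at -0.56 (SE 0.35), was at 71.8 CPM in 254I replicate 5 and at 12.6 to 27.7 CPM in the other 254I libraries, against 15.9 to 30.3 CPM in 254V. Without that library its log2 fold change was -0.002.

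The M1 effector genes differed far more with the replicate number than with the genotype. Of 38 listed, 34 were tested, and Il6, Il12a, Il12b and Il23a were not. Among the 34, 0 had an unadjusted p under 0.05 for genotype in the main fit. The median log2 fold change was 0.03, and 28 of 34 intervals lay within 2-fold. In a fit of the 10 libraries with both terms, the replicate number was called for 25 of the 34 (73.5%) at an adjusted p under 0.05. Over all 12905 genes it was called for 4500 (34.9%). For genotype that fit called 0 of the 34. At an unadjusted p under 0.05, 3 of the 34 were higher in 254V and 0 lower, against 249 and 226 of all 12905 genes. Nos2, which encodes inducible nitric oxide synthase, was at 19.0, 3.01, 26.0, 18.4 and 19.7 CPM in 254I replicates 1 to 5 and at 19.2, 4.92, 17.85, 19.95 and 20.93 CPM in 254V. Replicate 2 was the lowest library of both genotypes, and the groups overlapped fully (log2 fold change -0.05, SE 0.44).

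Ccl5, a chemokine for T cells, was at 93.3 CPM in 254I replicate 2 and 124.2 CPM in 254V replicate 2, and at 641 to 812 CPM in the other 8 libraries. Cxcl9 was at 979 and 1367 CPM in the libraries numbered 2, and at 1339 CPM in 254I replicate 4 and 2929 to 3659 CPM in the other 7. Tnf was at 44.7 ± 12.5 CPM in 254I and 48.1 ± 13.4 CPM in 254V (SD, n = 5), and Acod1, which makes itaconate, at 252.5 ± 98.0 and 271.6 ± 103.1 CPM. Replicate 2 was the lowest library in both genotypes for 18 of the 34, against 2504 of all 12905 genes. Slc7a2, an arginine transporter gene that IL-4 also raises, had the lowest value of the list at -0.48 (SE 0.29), with 36.2 CPM in 254I replicate 5 and 12.2 to 20.6 CPM elsewhere, and was at -0.19 without that library.

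Antiviral interferon-stimulated genes followed replicate 2 most closely. Of 26 tested, 24 were called for the replicate number (92.3%), and 24 were lowest in replicate 2 in both genotypes, against 2504 of all 12905 genes. Their median was 0.72 lower in replicate 2 than in the other numbers on the log2(CPM + 1) scale. For genotype 0 had an unadjusted p under 0.05 and the median log2 fold change was 0.02 (range -0.10 to 0.13). Ifi44 was at 181.2 and 186.7 CPM in the 2 libraries numbered 2 and at 307.8 to 417.4 CPM in the others. Isg20, an exonuclease gene, was at 4.91 and 6.59 CPM in them and at 15.04 to 26.47 CPM in the others. Leaving both libraries numbered 2 out left 0 genes called over all genes and a median of -0.01 for this list.

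Libraries with the same number deviated from their group means together, so the numbers were taken to pair them, and the blocked fit removes that part of the spread. It narrowed the median half-width from 0.23 to 0.13, and 0 genes passed the adjusted test. Before adjustment, 475 genes had p under 0.05 under the block, 249 higher (1.93%) and 226 lower (1.75%) in 254V. Of these, 86 were also among the 120 without the block, with the same direction in 86 of 86. All 5 pairs were higher in 254V for 343 genes (2.66%) and lower for 315 (2.44%).

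Cxcl10, a chemokine that IFN-γ induces, had the smallest blocked p. It was at 309.5, 325.2, 475.0, 359.5 and 316.4 CPM in 254I replicates 1 to 5 and at 352.9, 392.6, 488.7, 397.2 and 367.9 CPM in 254V, and 254V was higher in 5 of 5 pairs while the groups overlapped. Its blocked log2 fold change was 0.17 (SE 0.04, adjusted p = 1). The co-stimulatory receptor gene Cd40 was higher in 4 of 5 pairs, at 0.17 (SE 0.05). Lpar1, a receptor for lysophosphatidic acid, was higher in 5 of 5, at 0.35 (SE 0.09). Prkab2, which encodes a subunit of AMP-activated protein kinase and was named after its value was seen, was at 8.19 to 12.6 CPM in 254I and 10.2 to 16.9 CPM in 254V, at 0.33 with the block. The adjusted p of each was 1.

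**Figure D4:**
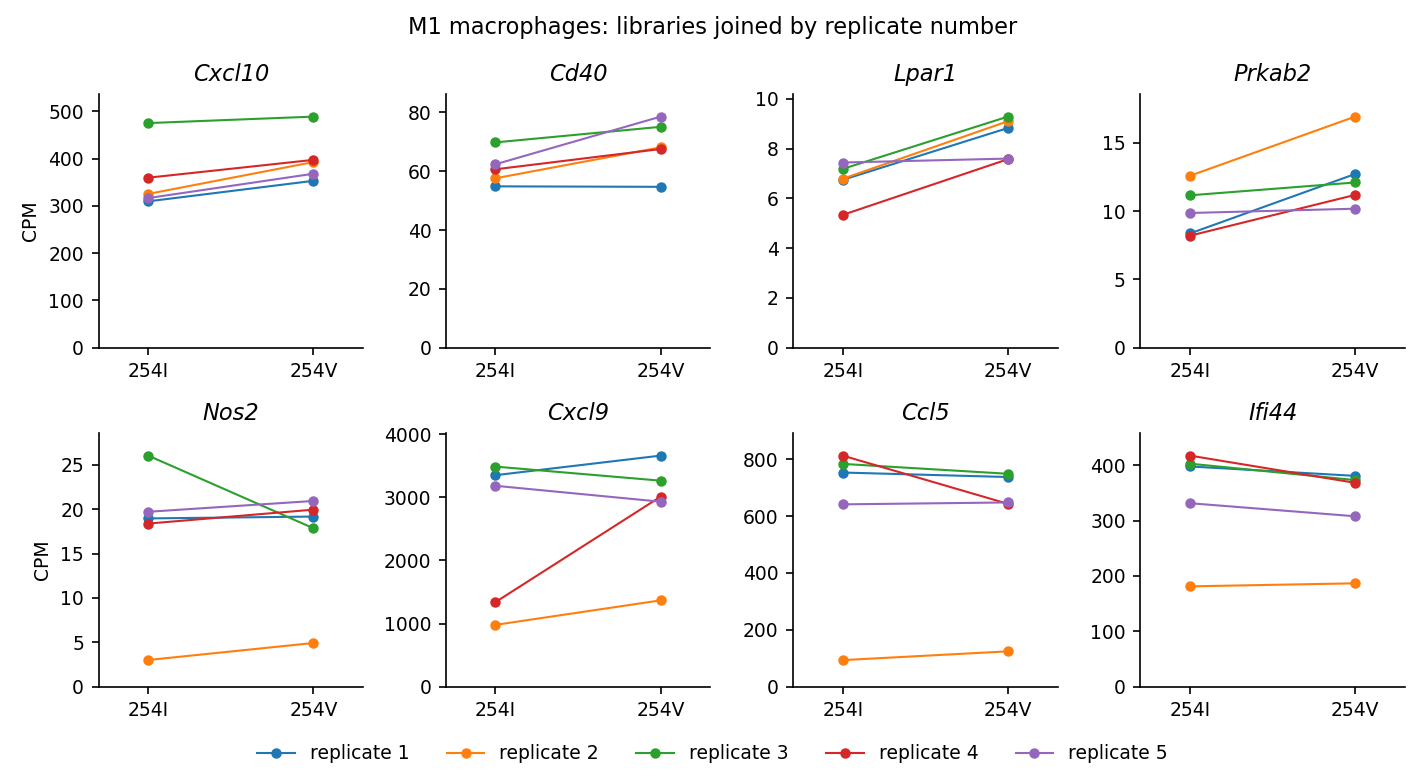
CPM (axes from 0) of 8 genes in the M1 libraries of 254I and 254V, with libraries of the same replicate number joined. In the upper row (Cxcl10, Cd40, Lpar1, Prkab2) 254V was higher in 4 or 5 of 5 pairs by a small amount, and in the lower row (Nos2, Cxcl9, Ccl5, Ifi44) replicate 2 was the lowest pair, with Ccl5 at 93.3 and 124.2 CPM.

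Other innate immune lists gave the same picture. Of 25 genes of the phagocyte NADPH oxidase and of antioxidant defence, 0 had an unadjusted p under 0.05 and 23 of 25 intervals lay within 1.5-fold. Txn1 (thioredoxin) was at 842 ± 99 CPM in 254I and 888 ± 65 CPM in 254V (SD, n = 5), and Gpx4, a lipid peroxide reductase gene, at 24.5 ± 0.90 and 24.1 ± 1.74 CPM. Of 20 genes of the NOD receptors and inflammasomes, 0 had an unadjusted p under 0.05. Mefv, which encodes pyrin, had the highest value of the list, 0.38 (SE 0.34), with 13.7 CPM in 254V replicate 3 and 4.77 to 7.99 CPM in the other 9 libraries, and Xiap the lowest, -0.08 (SE 0.06). Of 22 genes of Toll-like receptor signalling, 0 had an unadjusted p under 0.05. Tlr4, the LPS receptor gene, was at 192.2 to 245.7 CPM in 254I and 179.8 to 215.7 CPM in 254V, a log2 fold change of -0.10 (SE 0.08) and of -0.10 with the block (adjusted p = 1), lower in 5 of 5 pairs. The flagellin receptor gene Tlr5 was at most 1.147 CPM in all 10.

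Genes of energy metabolism were level between the genotypes. Glycolysis had 21 genes tested, 0 with an unadjusted p under 0.05, a median of 0.06 and 17 of 21 above 0 (6499 of 12905 over all genes), with 20 of 21 intervals within 1.5-fold. With the block 3 of 21 were higher at an unadjusted p under 0.05, against 249 of all 12905 genes. Of the 21, 0 passed the adjusted test with the block. Pfkp, which encodes the platelet form of phosphofructokinase, was at 363.5 to 524.7 CPM in 254I and 448.5 to 542.2 CPM in 254V and higher in 5 of 5 pairs, at 0.11 (SE 0.11) and at 0.12 with the block (adjusted p = 1). The lactate dehydrogenase gene Ldhb was at -0.18 (SE 0.28). The tricarboxylic acid cycle and malate-aspartate shuttle had 27 of 27 intervals within 1.5-fold and a median of 0.003, between Dld, a shared subunit gene of the 2-oxoacid dehydrogenases, at -0.05 (SE 0.05), and Idh3g at 0.06 (SE 0.07) among those with the smallest p.

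Across 77 subunit genes of the respiratory chain the median was 0.002, 74 of 77 intervals lay within 1.5-fold and 0 had an unadjusted p under 0.05. Atp5g1, an ATP synthase subunit gene, had the smallest p, at 1.63 ± 0.24 CPM in 254I and 2.10 ± 0.29 CPM in 254V (SD, n = 5, log2 fold change 0.37, SE 0.21), and the complex I gene Ndufab1 was at -0.13 (SE 0.11). Without 254I replicate 5, 1 of the 77 was higher in 254V at an unadjusted p under 0.05, against 49 of all 12905 genes. Fatty acid oxidation had 27 of 27 intervals within 1.5-fold, a median of 0.01 and a range of -0.09 to 0.07. Its named genes were Ppard, a lipid-activated transcription factor gene, at 33.2 ± 2.88 CPM in 254V against 31.6 ± 5.38 CPM in 254I (SD, n = 5), and the acyl-CoA synthetase gene Acsl5 at 216 ± 5.1 against 223 ± 5.8 CPM. For lipogenesis, 0 of 17 genes had an unadjusted p under 0.05 and 13 of 17 intervals lay within 1.5-fold, and the triglyceride synthesis gene Dgat2 was at 0.39 (SE 0.30) and Acacb, an acetyl-CoA carboxylase gene, at -0.25 (SE 0.28). Over all lists together, 0 of 395 genes passed the adjusted test, and 3 had an unadjusted p under 0.05, where 120 of all 12905 did. With the block 25 of 395 did, and 475 of all 12905.

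**Figure D5:**
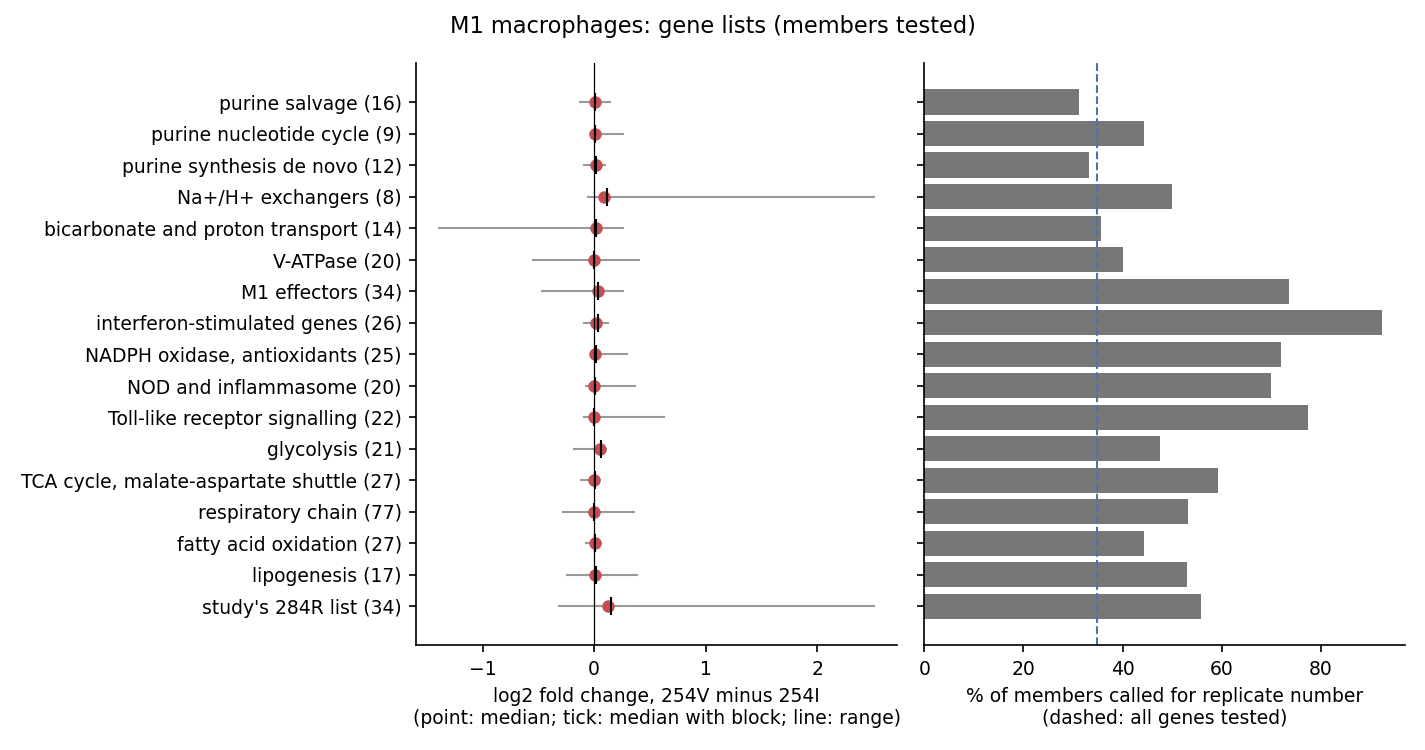
Left, log2 fold change of 254V over 254I for each gene list (number of members tested in brackets), with the median as a point, the median with the replicate block as a tick and the range as a line. Right, the percentage of members called for replicate number, with 34.9% of all genes tested as the dashed line. Medians lay between -0.003 and 0.127, and 92.3% of the interferon-stimulated genes were called for replicate number.

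A further list held 35 genes whose direction is not independent evidence. The study chose them on samples of this series, as genes that differed between Famin genotypes. It named Slc9a9, Mid1 and Rap1gap for the valine against the isoleucine form, from macrophages of all polarizations, and the other members for the monogenic disease variant. Of 34 tested, 0 passed the adjusted test for 254V over 254I, 2 had an unadjusted p under 0.05 (Slc9a9 and Rap1gap) and the median was 0.13, with 26 of 34 above 0 against 6499 of 12905 over all genes. Without 254I replicate 5 the median was 0.22. With the block 7 members were higher and 1 lower at an unadjusted p under 0.05, against 249 higher and 226 lower of all 12905 genes. Of the members, 0 passed the adjusted test with the block. In M1 alone, Slc9a9, Mid1 and Rap1gap did not pass the adjusted test in the main fit. The study named them with limma-voom from macrophages of all polarizations, so the 2 results differ in samples and method. Limma-voom with the block in M1 called Slc9a9 (adjusted p = 0.0299). Rap1gap, which encodes a GTPase-activating protein and was named after its value was seen, was at 3.26, 3.17, 3.38, 3.38 and 1.85 CPM in 254I replicates 1 to 5 and at 5.46, 2.29, 4.66, 4.98 and 6.14 CPM in 254V, so 254V was higher except in pair 2 (0.64, SE 0.25, adjusted p = 1). Mpp7, a scaffold protein gene, had the lowest value of the list, -0.32 (SE 0.26).

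Faminp.284R M1 macrophages, beside which 254V can be read, differed from 254V for 10 genes (0.0775%), and 10 of 10 were higher in 284R. They were Acsl1, Sod2, Nfkbia, Plpp1, Nos2, Clec4e, M6pr, Nrp2, Gpr84 and Tma16, and all of them were named because they were called. Nos2 was at a mean of 17.2 CPM in 254I, 16.6 CPM in 254V and 79.0 CPM in 284R, with 284R over 254V at 2.25 on the log2 scale (SE 0.45, adjusted p = 0.0327). Acsl1, a long-chain acyl-CoA synthetase gene, was at 234, 243 and 544 CPM, with 284R over 254V at 1.16 (SE 0.19, adjusted p = 0.0048). Sod2 (mitochondrial superoxide dismutase) was at 85.8, 87.8 and 183 CPM, and Nfkbia, which encodes the NF-κB inhibitor IκBα, at 46.2, 48.9 and 89.97 CPM. For 254V over 254I these 10 genes had log2 fold changes between -0.14 (Plpp1) and 0.27 (Clec4e). These values are not independent of the pick, which used the same 254V libraries and favours genes that are low in them. With the replicate number as a block over the 15 M1 libraries, 514 genes were called between 284R and 254V and 0 between 254V and 254I. Without the block, limma-voom called 0 genes between 284R and 254V. The contrasts of 284R and of 254V with 254I share the 254I libraries. For 284R over 254I, 34 of 12905 genes were called, 27 higher and 7 lower in 284R. Retnla and Arg1 were among the 7 lower, and both rest on 254I replicate 5. The contrast of 284R with 254I was not fitted without that library.

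The genotype difference in M1 was not shown to differ from that in the other polarizations. The interaction called 0 genes against M0 (111 at an unadjusted p under 0.05) and 0 against M2 (156), and 254V over 254I called 0 genes in M0 and 0 in M2. When limma-voom was given each combination of genotype and number as a random effect, 1 gene was called for the interaction with M2, Pvrig, an immune receptor gene, at -3.19 (SE 0.57, adjusted p = 0.0258).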

How the data were processed

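RNA of bone marrow-derived macrophages was sequenced as strand-specific mRNA libraries with single-end reads of 50 bases. Per the labels, the authors used Trim Galore, FastQC, HISAT2 and the mm10 genome, whereas the series' own design text names another aligner and sequencer, and versions, the counting tool and its use of strand are not given in the sources used here. The authors deposited counts per Ensembl gene, not normalized, for 29307 genes, and those were analysed; a table of CPM made from them was not used. Symbols and coordinates came from the GENCODE annotation of mm10, which matched 29081 identifiers.

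All 45 libraries were fitted in R 4.3.3 with edgeR 4.0.16 (filterByExpr over the 9 groups of genotype and polarization, TMM, robust glmQLFit with no block), and 254V was tested against 254I within M1. Every p and adjusted p comes from this quasi-likelihood test unless a permutation test, limma 3.58.1 or DESeq2 1.42.0 is named. Adjusted p-values are Benjamini-Hochberg values over all genes tested, and genes under 0.05 were called. Fold changes are on the log2 scale of the fit. CPM values are TMM-scaled, and permutation tests used log2(CPM + 1), two-sided, 5 libraries against 5. The scripts were tested on simulated data.

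Libraries with the same replicate number deviated together (correlations of 0.644, 0.871, 0.448, 0.491 and 0.339 for numbers 1 to 5 over 9522 genes with a mean of at least 5 CPM, although number 5 of 254V correlated most with number 4 of 254I, at 0.364), so the numbers were taken to pair the samples on the evidence of the data, and a fit of the 10 libraries with the number as a block was given where it bears on a result. No 2 libraries of a group held identical counts.

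The genes and lists were chosen with earlier results of these data known. Named are Slc9a9, Mid1 and Lacc1, the 6 genes with the smallest p in each direction, in each list the member with the smallest p in each direction, the salvage and nucleotide cycle genes, and the nearest neighbours within 2 Mb, of which 1 is not reported here. The genes called against 284R, Ccdc122 and further M1 effector and IL-4 genes were named after their values were seen. Alternatives were fits with the block or of fewer libraries, DESeq2 size factors and Wald test, limma-voom, other filters and dispersions, and each M1 library left out. Those without the libraries numbered 2 or 5 under the block, or without both libraries numbered 2, were chosen after seeing the data.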

Additional observations from a re-analysis of the deposited data

Results flagged for a closer look

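In 13 of 150 sets of 5 libraries (75 named genes in 2 genotypes), the highest or lowest library lay far from the other four, by Dixon's ratio with its critical value of 0.71 for 5 samples. Chance flags about 1 in 20 such sets, and genes that share a library are not independent. Retnla, Arg1 and Tmem26 were among the named genes because of their small p, which rests on a single extreme library. Their flags follow from that choice, so the count of flagged sets cannot be compared with the chance rate.

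Of these sets, 4 were in 254I replicate 5. Retnla was at 49.12 CPM there and at most 0.07 CPM in the other 254I libraries, Arg1 at 40.81 against at most 0.90 CPM, and Tmem26 at 14.73 against at most 0.74 CPM. Atp5g1 was at 2.053 CPM against 1.46 to 1.62 CPM.

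Another 7 were in the libraries numbered 2. Impdh1 was high in both genotypes, at 71.51 CPM in 254I and 70.86 CPM in 254V, against 45.5 to 55.4 CPM in the other 8 libraries. Ampd3 was low in both, at 24.44 and 27.01 CPM, against 36.6 to 41.7 CPM. Ifi44 was low in 254I, at 181.2 CPM against 331.4 to 417.4 CPM, and at 186.7 CPM in 254V. Tsc22d1, a neighbour of Lacc1, was at 36.86 CPM in 254V against 28.1 to 29.9 CPM, and at 36.89 CPM in 254I. Gm21887 was at 0.5551 CPM in 254V against at most 0.10 CPM.

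The remaining sets were Lacc1 in 254V replicate 4, at 597.4 CPM against 532.6 to 545.5 CPM, and Dld in 254V replicate 1, at 124.8 CPM against 109.0 to 113.2 CPM. The source of these values was not tested.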

How the results depend on the processing

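Of 26 alternatives to the comparison of 254V with 254I, 21 also called 0 genes, and the number at an unadjusted p under 0.05 ranged from 44 to 574. DESeq2's Wald test called 3 genes (Retnla, Arg1 and Tmem26), and leaving out 1 M1 library gave 0 to 2, the latter being Retnla and Arg1 without 254I replicate 1, 2 or 3. All 3 genes rest on 254I replicate 5. With the replicate number as a block, edgeR called 0 genes (475 at an unadjusted p under 0.05, against 120 without it) and limma-voom 1, Slc9a9 at 2.58. The log2 fold change of Slc9a9 ranged from 1.845, in the blocked fit without the libraries numbered 2, to 2.789, that of Mid1 from 0.516 to 0.876 and that of Lacc1 from 0.103 to 0.16, none with a change of direction. Retnla ranged from -7.062 to 1.338 when 1 library was left out, and was 1.507 in the blocked fit without the libraries numbered 5. For the interaction with M2, limma-voom with genotype and number as a random effect called 1 gene, Pvrig. Between 284R and 254V, the blocked fit called 514 genes and limma-voom 0. The causes were not tested. The block changed no other call. Without a low-count filter 334 of 20422 genes, and with at least 10 counts in every library 44 of 10568, had an unadjusted p under 0.05. Depth limits genes of a few reads, such as Car11 and Stk19-ps1.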
